A study of Homo sapiens with 8 samples.

Results

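Hemidesmosomes and laminin-332 anchor the basal keratinocyte to the basement membrane. The 9 genes described here encode parts of this anchor and of the integrins of the same cell surface: LAMA3 and LAMB3 (chains of laminin-332), ITGA6 and ITGB4 (integrin α6β4), COL17A1, DST and PLEC (further hemidesmosome proteins), and ITGA3 and ITGB1 (integrin α3β1). They were taken by gene symbol, and all 9 were found among the 61806 genes of the deposited table. The values come from 8 mRNA libraries of wildtype N/TERT-1 cells, an immortalized human epidermal keratinocyte line, grown in serum-free keratinocyte medium. In 4 libraries the cells had received ethanol, the solvent, and in 4 libraries O/A, a mixture of oligomycin and antimycin A that blocks the mitochondrial ATP synthase and complex III. The labels state no dose and no time, the RNA was collected after 4 hours according to the legend of the study, and the 4 libraries of a group came from independent experiments of 1 cell line. The question that this comparison addresses is how the transcriptome of N/TERT cells responds when mitochondria are depolarized.

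As background, laminin-332 is a secreted heterotrimer, with an α3 and a β3 chain, on which keratinocytes lie. Integrin α6β4 binds it from the basal membrane, and the long cytoplasmic tail of β4 holds plectin, while the collagen XVII molecule spans the membrane beside it. Plectin and the epithelial form of dystonin then tie the complex to the keratin filaments, and integrin α3β1 binds the same laminin at focal adhesions, which are linked to actin. Inherited loss of several of these genes causes junctional or simplex forms of epidermolysis bullosa, in which the epidermis detaches.

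Between 17210404 and 20999927 reads were counted per library in ethanol and between 17689760 and 19263046 in O/A. Each of the 9 genes had at least 11171 counts in every library. Levels are given as TMM-scaled FPKM, that is, counts per kilobase of exonic length and per unit of library size after edgeR's scaling between libraries. Folds and adjusted p-values come from edgeR's quasi-likelihood test over 14893 genes. A gene is said to have risen or fallen if it passed an adjusted p of 0.05, and is called upregulated or downregulated only if its absolute log2(FC) also exceeded 0.25. The markers of basal keratinocytes KRT5, KRT14, TP63 and KRT15 were all expressed, with a summed level of 2470 to 2710 in ethanol and 2140 to 2300 in O/A. The summed level of 6 fibroblast markers lay between 2.37 and 2.92 in ethanol and between 2.48 and 2.72 in O/A, nearly all of it COL1A1. COL1A2, COL3A1, PDGFRA and DCN stayed at or below 0.0181, and LUM at or below 0.0605. Sums for melanocyte, endothelial and leukocyte markers were below 0.9 in every library. The suprabasal markers summed to 19.2 to 20.9 in ethanol and 21.1 to 22.4 in O/A, with KRT1 and LORICRIN listed at 0 in every library. The 2 suprabasal markers that were tested went opposite ways, with KRT10 between 9.49 and 10.7 in ethanol and between 13.1 and 14.8 in O/A, and IVL between 8.89 and 10.8 in ethanol and between 7.26 and 8.39 in O/A. The part of the shift in keratinocyte markers in the results below was not tested.

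In O/A, the mean levels of the 9 genes differed from those in ethanol by between -27.0% (DST) and 18.5% (LAMB3). Among the 9 genes, 6 passed the test at 0.05, of which 4 were higher (LAMB3, ITGB4, ITGA6 and LAMA3) and 2 were lower (DST and ITGA3) in O/A. The same test reached 53.7% of all genes tested. Past both thresholds there was only 1 gene, DST, which was downregulated, and none of the 9 was upregulated, against 18.9% of all genes tested downregulated and 15.8% upregulated. The median log2(FC) of the 9 genes was 0.04, and that of all genes tested was 0.00. The libraries of both conditions did not overlap for 6 of the 9 genes, compared with 47.6% of all genes tested. In these bulk libraries, fewer cells that carry a transcript and less of it per cell cannot be told apart.

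**Figure D1:**
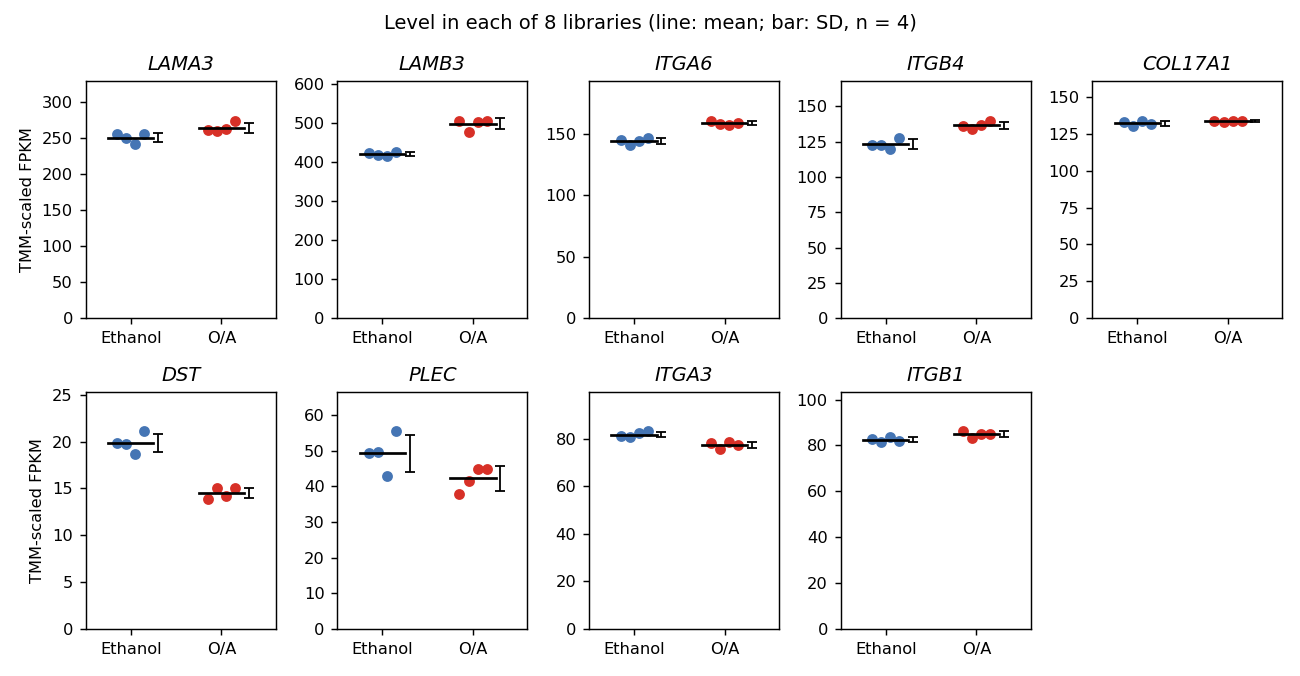
TMM-scaled FPKM (vertical axes, from 0) of the 9 genes in each ethanol library (blue) and O/A library (red), with the mean as a line and the SD (n = 4) as a bar. The 4 O/A libraries lie below the 4 ethanol libraries for DST and above them for LAMB3, ITGA6 and ITGB4, while the PLEC libraries overlap.

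Among the 9 genes, those of the laminin-332 chains were the most abundant per length. LAMB3 (ENSG00000196878), the β3 chain, lies on chromosome 1 of GRCh38 from 209614870 to 209652425 on the minus strand. Its level was 424, 419, 415 and 426 in ethanol replicates 1 to 4, and 507, 478, 504 and 507 in O/A replicates 1 to 4. Every O/A library was above every ethanol library. The rise was 18.5%, or 0.245 on the log2 scale (standard error 0.0244, adjusted p = 2.28e-12), just within the threshold of 0.25. LAMB3 lay past that threshold with DESeq2 (0.252), with median-ratio scaling (0.252) and without ethanol replicate 1 (0.253), ethanol replicate 4 (0.257) or O/A replicate 2 (0.275). Its value was 0.148 under quantile normalization and 0.356 with trends in length and GC content removed.

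LAMA3 (ENSG00000053747), the α3 chain, lies on chromosome 18 from 23689453 to 23956222 on the plus strand. It had levels of 255, 250, 241 and 255 in the ethanol libraries and 261, 259, 262 and 274 in the O/A libraries. The groups were separated by little, and O/A replicate 4 was the highest library. On the log2 scale the rise was 0.08 (standard error 0.0247, adjusted p = 0.00701). With library totals as the only scaling the log2(FC) was 0.03 and the adjusted p-value 0.292, and without O/A replicate 4 the adjusted p-value was 0.0571.

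Which transcript the reads came from bears on these levels per length. LAMA3 has a long and a short form with separate starts. In the GENCODE annotation, whose gene positions matched the deposited ones for 9 of 9 genes, the short LAMA3 transcript starts at 23873020 and has 38 exons and 5618 spliced bases, and the long transcript has 75 exons and 10651 spliced bases. The deposited exonic size of 14488 bases spans the exons of all forms. If every read had come from the short form, the level would be 645 ± 16.7 (SD, n = 4) in ethanol and 681 ± 17.4 (SD, n = 4) in O/A, above that of LAMB3. The gene counts do not separate the forms.

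The start regions of the laminin genes and of DST are shown because LAMB3 and DST had the highest and the lowest log2(FC) of the 9 genes and LAMA3 encodes the chain that joins LAMB3. Start windows were taken from the RefSeq promoter table (GRCh38.p14, 300 bases each, 250 before to 50 after a start). For 6 of the 9 genes 12 windows in all were used, and none for ITGB4, ITGA3 or PLEC. Capitals mark the letters TGANTCA, the core of the AP-1 element, which reads the same on both strands. These letters were in 7.71% of all 35116 windows, and in 3 of the 12 windows used, 1 each of LAMA3, LAMB3 and DST. The 12 windows do not cover all 9 genes. Only 0.515% of all windows held the letters more than once, and the window at the start of the short LAMA3 form was among them. A further LAMB3 window (chr1:209652280-209652579) and a further DST window (chr6:56851856-56852155) held no match and are not printed. A match describes the letters and not a bound site.

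LAMA3, short form, chr18:23872770-23873069, plus strand: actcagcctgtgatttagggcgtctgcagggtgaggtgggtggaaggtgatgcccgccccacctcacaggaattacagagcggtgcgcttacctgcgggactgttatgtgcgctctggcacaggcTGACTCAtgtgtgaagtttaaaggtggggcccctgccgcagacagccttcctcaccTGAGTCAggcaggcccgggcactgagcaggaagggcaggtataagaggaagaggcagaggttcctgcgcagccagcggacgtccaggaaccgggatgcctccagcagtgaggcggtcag
LAMB3, outermost start, chr1:209652376-209652675, minus strand: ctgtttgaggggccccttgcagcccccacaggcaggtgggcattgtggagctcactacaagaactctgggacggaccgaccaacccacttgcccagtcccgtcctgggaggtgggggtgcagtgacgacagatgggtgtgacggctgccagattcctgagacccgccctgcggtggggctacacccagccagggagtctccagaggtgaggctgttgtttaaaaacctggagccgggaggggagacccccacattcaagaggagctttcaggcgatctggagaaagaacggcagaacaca
LAMB3, inner start, chr1:209651325-209651624, minus strand: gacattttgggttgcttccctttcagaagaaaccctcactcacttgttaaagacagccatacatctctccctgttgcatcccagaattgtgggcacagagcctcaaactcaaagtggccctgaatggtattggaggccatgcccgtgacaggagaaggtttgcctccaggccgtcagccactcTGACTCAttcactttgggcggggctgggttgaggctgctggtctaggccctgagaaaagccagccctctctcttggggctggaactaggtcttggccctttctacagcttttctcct
DST, short form, chr6:56642840-56643139, minus strand: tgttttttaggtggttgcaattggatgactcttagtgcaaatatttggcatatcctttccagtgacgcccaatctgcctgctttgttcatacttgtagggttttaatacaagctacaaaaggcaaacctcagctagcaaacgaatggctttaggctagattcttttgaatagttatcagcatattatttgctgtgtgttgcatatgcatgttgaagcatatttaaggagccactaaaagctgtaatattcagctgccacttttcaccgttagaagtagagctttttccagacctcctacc
DST, outermost start, chr6:56954781-56955080, minus strand: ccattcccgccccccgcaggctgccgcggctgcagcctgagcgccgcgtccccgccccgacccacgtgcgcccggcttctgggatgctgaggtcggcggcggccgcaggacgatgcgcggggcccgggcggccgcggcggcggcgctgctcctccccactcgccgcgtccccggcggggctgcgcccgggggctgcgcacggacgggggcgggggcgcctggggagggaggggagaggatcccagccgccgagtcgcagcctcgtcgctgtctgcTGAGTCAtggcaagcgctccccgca

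In the edgeR test, the 2 subunits of integrin α6β4 moved by nearly the same amount. ITGA6 (ENSG00000091409), the α6 subunit, is on chromosome 2 from 172427354 to 172506459 on the plus strand. Its levels were 145, 141, 144 and 147 in ethanol and 161, 158, 157 and 159 in O/A. ITGB4 (ENSG00000132470), the β4 subunit, is on chromosome 17 from 75721328 to 75757818 on the plus strand, with levels of 123, 123, 120 and 128 in ethanol and 136, 134, 137 and 140 in O/A. For both genes all O/A libraries lay above all ethanol libraries. The log2(FC) was 0.14 for ITGA6 (standard error 0.0241, adjusted p = 2.28e-06) and 0.15 for ITGB4 (standard error 0.0249, adjusted p = 1.97e-06). Under quantile normalization these values were 0.03 (adjusted p = 0.151) and 0.02 (adjusted p = 0.478), and neither passed the test there. With trends in length and GC content removed ITGB4 was at 0.28, past both thresholds, and ITGA6 was at 0.14, within the fold threshold. CD151, a tetraspanin that accompanies the laminin-binding integrins, differed by -6.48% in the mean, with 34.3 to 36.0 in ethanol and 32.1 to 34.5 in O/A, and fell by 0.10 on the log2 scale (adjusted p = 0.00754). The ranges of CD151 overlapped, its adjusted p-value was 0.0558 without O/A replicate 2, the value turned to 0.02 with trends in length and GC content removed, and the gene overlaps POLR2L on the opposite strand, which held reads amounting to 32.6% of those of CD151.

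For integrin α3β1, the α3 subunit fell slightly and the β1 subunit did not pass the test. ITGA3 (ENSG00000005884), the α3 subunit on chromosome 17 from 50055968 to 50090481 on the plus strand, had levels of 81.0, 80.6, 82.3 and 83.2 in ethanol and 78.1, 75.8, 78.6 and 77.6 in O/A. All O/A libraries were below all ethanol libraries, with a difference of -5.22% in the mean, and the log2(FC) was -0.08 (standard error 0.0244, adjusted p = 0.00612). The call did not hold in every alternative: the adjusted p-value was 0.0699 without O/A replicate 2 and the log2(FC) was 0.03 after trends in length and GC content were removed. ITGB1 (ENSG00000150093), the β1 subunit shared by many integrins, is on chromosome 10 from 32887273 to 33005792 on the minus strand. It had 83.0, 81.6, 83.7 and 82.0 in ethanol and 86.2, 83.4, 85.2 and 85.1 in O/A. The groups overlapped, and the log2(FC) was 0.04 (95% interval -0.01 to 0.09, adjusted p = 0.136), a value that turned below 0 with library totals as the only scaling and under quantile normalization. Without O/A replicate 2, where ITGA3 did not pass, ITGB1 did (0.06, adjusted p = 0.0463). The pseudogene ITGB1P1 held reads amounting to 4.84% of those of ITGB1, and how reads shared by both were counted was not tested.

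COL17A1 (ENSG00000065618), the transmembrane collagen XVII of the hemidesmosome, is on chromosome 10 from 104031286 to 104085880 on the minus strand. Its levels of 133, 130, 134 and 132 in ethanol and 134, 133, 134 and 134 in O/A covered each other. The log2(FC) was 0.02 (95% interval -0.03 to 0.07, adjusted p = 0.558). The sign of this value depended on the scaling, with -0.03 for library totals alone and -0.09 under quantile normalization, where the adjusted p-value was 1.12e-04. It passed the test in the other direction with trends in length and GC content removed (0.11, adjusted p = 2.32e-04). No direction is therefore given for COL17A1.

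DST (ENSG00000151914) encodes dystonin, a plakin whose epithelial form links the hemidesmosome to keratins and whose longer forms bind actin and microtubules. The gene covers 496.8 kb on chromosome 6 from 56457987 to 56954830 on the minus strand, the longest of the 9 genes. Its levels were 19.9, 19.7, 18.7 and 21.1 in ethanol, and 13.9, 15.0, 14.2 and 15.0 in O/A. The lowest ethanol library stood well above the highest O/A library. DST was downregulated and fell by 27.0%, which is -0.45 on the log2 scale (standard error 0.033, adjusted p = 5.40e-11). Over the 20 alternatives that refit the genes the value lay between -0.58 and -0.415, and DST passed both thresholds in each.

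The annotated forms of DST differ widely in length. The short epithelial transcript, which starts at 56642889, has 24 exons and 8971 spliced bases over 28293 bases of the genome. The longest-spanning reference transcript has 104 exons and 24709 spliced bases and starts at the outermost end of the gene. Since the deposited exonic size is 48142 bases, the levels above are lower than they would be over the length of any single form. If every read had come from the short transcript, the level would be 107 ± 5.44 in ethanol and 77.9 ± 3.09 in O/A (SD, n = 4). Which form fell cannot be read from gene counts.

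PLEC (ENSG00000178209), plectin, the other plakin of the hemidesmosome, is on chromosome 8 from 143915153 to 143976734 on the minus strand. It had levels of 49.3, 49.8, 42.8 and 55.5 in ethanol and of 37.8, 41.4, 44.8 and 45.0 in O/A. Ethanol replicate 3 lay inside the range of the O/A libraries. PLEC was the most variable of the 9 genes, with a coefficient of variation of 10.5% in ethanol and 8.0% in O/A, against 0.4% to 5.11% for the others. Its means differed by -14.4%, or by -0.22 on the log2 scale (95% interval -0.45 to 0.00, adjusted p = 0.0884), so a fall was not shown. Without ethanol replicate 3 the log2(FC) was -0.28 and the adjusted p-value 0.0303, and without ethanol replicate 4 they were -0.16 and 0.197. DESeq2 gave an adjusted p-value of 0.0456 with a log2(FC) of -0.22, and PLEC passed both thresholds with library totals only (-0.27, adjusted p = 0.0453) and under quantile normalization (-0.35, adjusted p = 0.0236).

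The libraries in which PLEC was high or low within a condition were partly those in which DST was. Ethanol replicate 4 was the highest and ethanol replicate 3 the lowest ethanol library for both genes, and O/A replicate 1 was the lowest O/A library for both. Over the 8 libraries the deviations of both genes from their condition means had r = 0.81, a description in which the points share libraries and depth. The median of 605 genes with at least 16 kb of exonic length moved with the same ethanol libraries, at -0.04 in ethanol replicate 3 and 0.04 in ethanol replicate 4 on the log2 scale, and lay between -0.01 and 0.05 in O/A. Of these long genes 14.9% were downregulated and 17.7% upregulated, with a median log2(FC) of 0.03. With the trend in exonic length removed in each library, the log2(FC) was -0.48 for DST and -0.24 for PLEC, which passed the test there (adjusted p = 0.0291). With trends in length and GC content removed it was -0.48 for DST and -0.10 for PLEC (adjusted p = 0.23). PLEC has the highest GC content of the 9 genes, at 67.0% of its longest transcript, and DST has 41.6%.

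**Figure D2:**
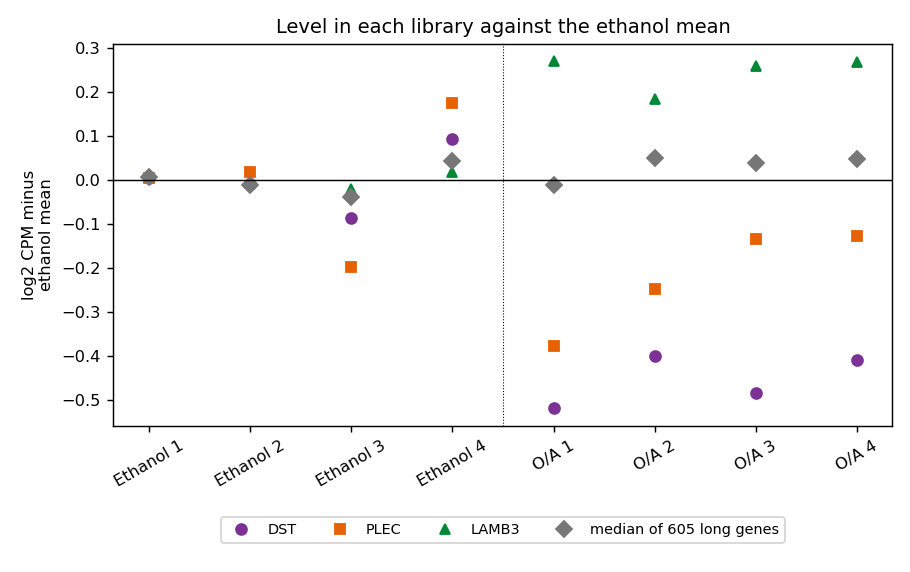
Log2 CPM minus the ethanol mean (vertical axis) of DST, PLEC and LAMB3 in each library (horizontal axis), with the median of 605 genes of at least 16 kb exonic length. DST lies at -0.40 or lower in all O/A libraries, PLEC spreads from -0.20 to 0.18 in ethanol, and the long genes stay between -0.04 and 0.05.

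**Figure D3:**
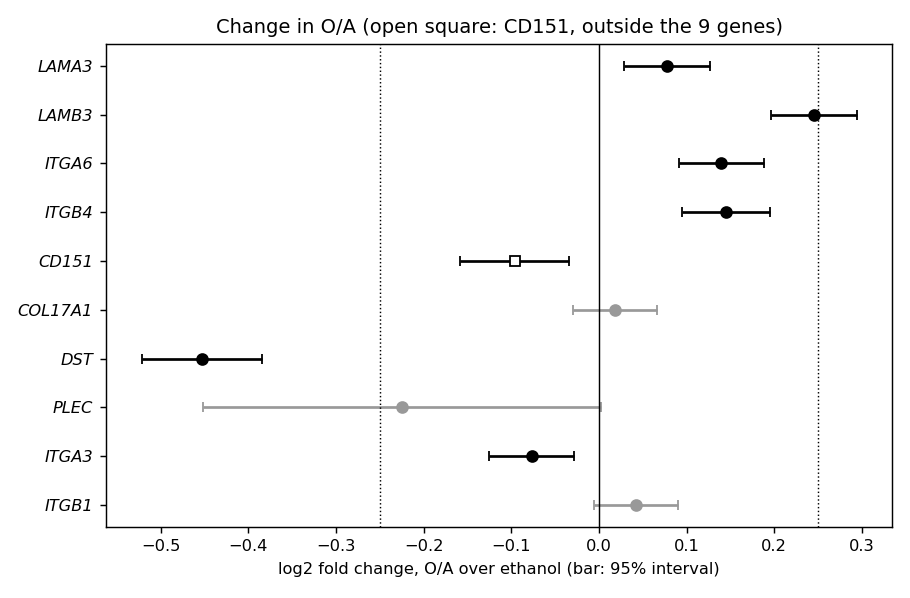
Log2 fold change of O/A over ethanol (horizontal axis) with its 95% interval for the 9 genes (circles) and for CD151 (open square), in black where the test was passed at 0.05 and in grey otherwise. Dotted lines mark 0.25 in each direction, and DST is the only gene whose whole interval, -0.52 to -0.39, lies outside them.

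The levels kept nearly the same order in both conditions. In ethanol it ran from LAMB3 (421 ± 5.14, SD, n = 4) over LAMA3, ITGA6, COL17A1, ITGB4, ITGB1, ITGA3 and PLEC to DST (19.9 ± 1.01). In ethanol the ranges of neighbours overlapped only for ITGB1 and ITGA3. In O/A, ITGB4 (137 ± 2.40) and COL17A1 (134 ± 0.535) had changed places and touched at the edges of their ranges, while ITGA3 (77.5 ± 1.22) lay wholly below ITGB1 (85.0 ± 1.15). This order is per exonic length and would change for LAMA3 and DST with the transcript form, as given above.

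Ratios of partner genes within a library do not depend on the scaling factor given to that library, although they do depend on corrections that treat genes differently. Under quantile normalization LAMA3 (0.141) and LAMB3 (0.148) had nearly the same log2(FC), and with trends in length and GC content removed ITGA3 (0.03) lay above ITGB1 (-0.01). With the same trends removed, ITGB4 (0.28) also lay above ITGA6 (0.14). The log2 ratio of LAMA3 to LAMB3 was -0.75 ± 0.022 in ethanol and -0.92 ± 0.0377 in O/A (SD, n = 4), a linear ratio of 0.594 and 0.529. The groups did not overlap (exact two-sided permutation test, p = 0.0286, the smallest that 4 against 4 allows, and 0.0358 adjusted over 5 ratios). ITGA6 over ITGB4 stayed at a linear ratio of 1.17 in ethanol and 1.16 in O/A, and the log2 difference of -0.01 was not past the test (exact permutation p = 0.686), with differences between single libraries from -0.07 to 0.05. In contrast, ITGA3 over ITGB1 went from a linear ratio of 0.991 to 0.912, with a log2 difference of -0.12 and no overlap (exact permutation p = 0.0286, adjusted 0.0358).

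The ratios against DST had the largest log2 differences of the 5. COL17A1 over DST was 6.68, 6.59, 7.18 and 6.23 in the ethanol libraries and 9.67, 8.86, 9.47 and 8.94 in the O/A libraries. PLEC over DST was 2.47, 2.52, 2.29 and 2.62 in ethanol and 2.73, 2.75, 3.15 and 3.01 in O/A. Neither ratio overlapped between conditions, with log2 differences of 0.47 and 0.23 (exact permutation p = 0.0286 each, adjusted 0.0358). Relative to COL17A1 and to PLEC, DST was therefore lower in every O/A library than in any ethanol library, although a change of PLEC itself was not shown. The log2 difference of a ratio restates the log2(FC) of its 2 genes. How often ratios of other gene pairs lack overlap was not tested, and among single genes it was 47.6% of all genes tested.

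**Figure D4:**
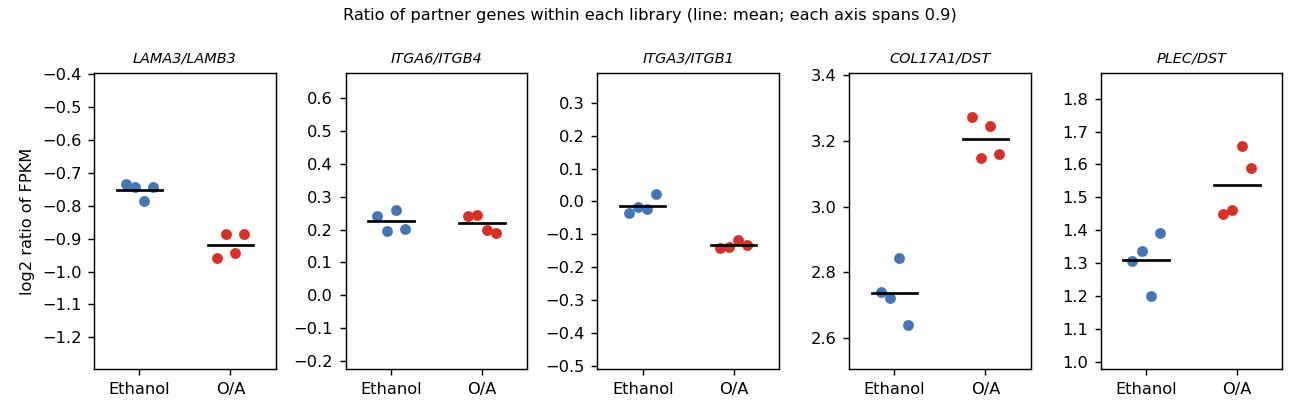
Log2 ratio of FPKM of 5 pairs of partner genes (vertical axes, each spanning the same length) in ethanol (blue) and O/A (red) libraries, with the mean as a line. The groups are apart for LAMA3/LAMB3, ITGA3/ITGB1, COL17A1/DST and PLEC/DST, and overlap for ITGA6/ITGB4. How often other gene pairs are apart was not tested.

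Genes that surround the anchor were taken from lists chosen by their roles. Of 22 other basement membrane genes 19 were tested, and 1 was upregulated and 2 were downregulated, with a median log2(FC) of -0.06. Counts in this and the following lists are to be read against the 15.8% of all genes tested that were upregulated and the 18.9% that were downregulated. TNC, the matrix glycoprotein tenascin C, was upregulated (0.27, adjusted p = 3.19e-07), and COL4A1, the collagen IV chain of the basement membrane sheet (-0.37, adjusted p = 6.92e-14), and AGRN, the proteoglycan agrin (-0.28, adjusted p = 2.37e-12), were downregulated. TNC was below the threshold of 0.25 in 5 alternatives, among them library totals only (0.225), quantile normalization (0.222) and the data without ethanol replicate 2 (0.248), and AGRN was at -0.134 with trends in length and GC content removed. COL7A1, which forms the anchoring fibrils beneath the hemidesmosome, had a log2(FC) of 0.17 and an adjusted p-value of 0.075. It passed the test in other fits, with DESeq2 (adjusted p = 0.0261), without ethanol replicate 4 (0.0065) or O/A replicate 1 (0.0162), and past both thresholds with trends in length and GC content removed (0.29). FRAS1 (-0.42, adjusted p = 0.112) and NID1 (0.38, adjusted p = 0.289) had 9 to 41 counts per library and did not pass the test. The value of NID1 was 0.12 without ethanol replicate 2 and 0.58 without ethanol replicate 3 or 4, and FRAS1 passed without O/A replicate 4 (-0.60, adjusted p = 0.0344).

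Among the other integrin subunits, ITGA1, ITGA2 and ITGA5 were upregulated and ITGA4 was downregulated. Of 10 listed, 8 were tested, of which 3 were upregulated and 1 was downregulated, with a median log2(FC) of 0.15. ITGA5, the fibronectin receptor subunit, went from 22.9 ± 0.613 to 32.1 ± 1.03 (log2(FC) 0.48, adjusted p = 3.69e-20). ITGA2, which pairs with ITGB1 as a collagen receptor, went from 66.2 ± 4.23 to 91.6 ± 3.31 (SD, n = 4, log2(FC) 0.47, adjusted p = 3.74e-07). ITGA1 (0.26, adjusted p = 0.00195) was upregulated at a low level, with means of 0.789 and 0.945. ITGA1 was below the threshold of 0.25 in 7 alternatives, among them library totals only (0.213) and the data without ethanol replicate 1 (0.237), ethanol replicate 3 (0.234), O/A replicate 2 (0.236) or O/A replicate 4 (0.249). ITGA4 (-0.55, adjusted p = 0.00388), which also pairs with ITGB1 to bind fibronectin, was downregulated, with only 39 to 80 counts per library. ITGB5 (-0.11, adjusted p = 0.013) and ITGB6 (-0.10, adjusted p = 0.00443) fell within the threshold. Neither fall held without O/A replicate 2 (adjusted p = 0.115 and 0.0578), and that of ITGB5 was also lost without ethanol replicate 2 (0.0779) or O/A replicate 3 (0.0501) and that of ITGB6 without ethanol replicate 3 (0.0644).

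Adaptors and kinases of integrin adhesions were downregulated in 11 of 26 tested and upregulated in 0, with 20 of 26 passing the test at 0.05 and a median log2(FC) of -0.19. Over all genes tested, 18.9% were downregulated, 15.8% upregulated and 53.7% passed at 0.05. KANK1, which links talin to microtubule capture at the cell cortex, had the lowest value (-1.30, adjusted p = 1.50e-30). TNS4, a tensin that binds integrin tails, went from 104 ± 4.51 to 51.5 ± 4.15 (SD, n = 4, log2(FC) -1.02, adjusted p = 1.51e-06), and TLN2, the second talin, fell by 0.72 on the log2 scale at 76 to 179 counts per library (adjusted p = 6.98e-07). The highest values were those of PARVA (0.16, adjusted p = 8.55e-05), PPFIA1 (0.15, adjusted p = 3.15e-04) and TLN1 (0.09, adjusted p = 0.0211), which rose within the threshold. TLN1 did not pass with library totals only (0.05, adjusted p = 0.208), under quantile normalization (0.00022, adjusted p = 0.997) or without ethanol replicate 2 (0.0526), ethanol replicate 3 (0.0758), O/A replicate 3 (0.0539) or O/A replicate 4 (0.0695).

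Of 7 other plakins and linkers, 2 were downregulated and 0 upregulated, with a median log2(FC) of -0.04. EVPL, the plakin envoplakin of the cornified envelope, had a log2(FC) of -0.52 (adjusted p = 3.17e-14) and CLASP1, a microtubule tip protein, -0.30 (adjusted p = 4.00e-12). MACF1, the spectraplakin most closely related to DST, did not pass the test and had a level of 2.93 ± 0.497 in ethanol and 2.90 ± 0.212 in O/A (SD, n = 4, log2(FC) -0.02, adjusted p = 0.934), a sign that turned without ethanol replicate 4, O/A replicate 1 or O/A replicate 3 and with length and GC trends removed. CLASP2 (-0.10, adjusted p = 0.0228) fell within the threshold, but did not pass without ethanol replicate 1 (0.122), O/A replicate 2 (0.113) or O/A replicate 3 (0.104). PPL (0.05) and MAPRE1 (-0.01) did not pass the test. PPL passed without O/A replicate 4 (0.10, adjusted p = 0.0432) and with length and GC trends removed (0.15, adjusted p = 0.0121). It was below 0 on the log2(FPKM + 0.1) scale. MAPRE1 passed under quantile normalization (-0.11, adjusted p = 2.44e-04), and its sign turned with median-ratio scaling.

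Of 14 membrane and signalling partners of integrin α6β4, 4 were upregulated and 0 downregulated, with a median log2(FC) of 0.09. SLC3A2, the heavy chain of amino acid transporters that also binds β integrin tails, went from 62.4 ± 1.49 to 125 ± 1.95 (SD, n = 4, log2(FC) 1.00, adjusted p = 5.53e-36). MET, the receptor of hepatocyte growth factor, had a log2(FC) of 0.46 (adjusted p = 2.58e-21), and PRKCA, a kinase of the β4 tail, 0.42 (adjusted p = 1.15e-05), or 0.205 on the log2(FPKM + 1) scale. ERBB2 fell by 0.21 on the log2 scale (adjusted p = 4.74e-06), within the threshold, which it passed with library totals only (-0.257), whereas CD44 (-0.02) and CDH13 (-0.03) did not pass the test. Both passed in other fits. With library totals only, CD44 was at -0.068 (adjusted p = 0.0163) and CDH13 at -0.075 (adjusted p = 0.0404). Under quantile normalization, CD44 was at -0.11 (adjusted p = 1.09e-05) and CDH13 at -0.075 (adjusted p = 0.0388).

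**Figure D5:**
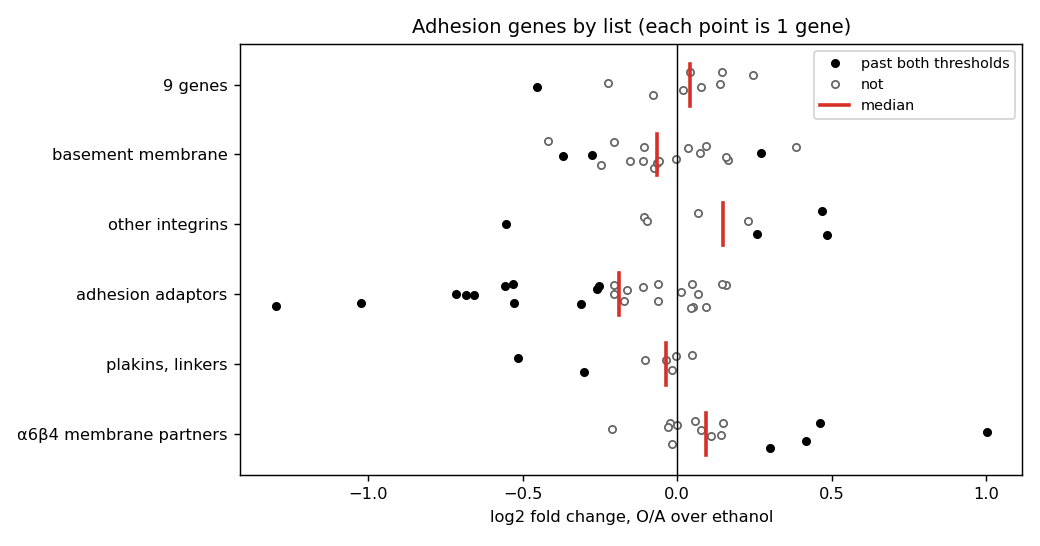
Log2 fold change of O/A over ethanol (horizontal axis) of each gene tested in 6 groups of adhesion genes, filled where it passed both thresholds, with the median in red. The 9 genes lie between -0.45 and 0.24 with 1 filled point, whereas the adhesion adaptors reach -1.30 with 11 filled points, all on the left.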

How the data were processed

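The 8 mRNA libraries, 4 per condition, were assigned to conditions by their labels. The authors selected polyadenylated RNA, sequenced paired-end reads, aligned them to GRCh38.p13 with HISAT2 2.0.1 and counted them on Ensembl genes with HTSeq 0.6.1. The deposited counts are not normalized. FPKM columns, deposited beside the counts, equal the count over exonic size and library total to within 0.005. The Ensembl release and the strand setting of the counting are not given in the sources used here. A second deposited table with the authors' DESeq2 comparison (means, fold changes, their errors and p-values) was not used.

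Counts were scaled by TMM and compared with edgeR 4.0.16 in R 4.3.3 (robust quasi-likelihood test, Benjamini-Hochberg adjustment over all genes tested). Genes with a count of 10 or more in 4 or more libraries were kept. Standard errors are the absolute log2(FC) over the square root of F. The members and lists were chosen with earlier results of these data known. All 9 genes and the partner CD151 are named, a further partner gene is not reported here, and of each other list the 3 highest and 3 lowest log2(FC). Alternatives were DESeq2 1.42.0, limma 3.58.1 on log2(FPKM + 0.1) and log2(FPKM + 1) for genes with a mean FPKM of at least 1, a run without filter, a filter at mean FPKM 5, other scalings, other thresholds, the replicate number as a block, and each library left out. Removal of length and GC trends (splines per library, limma on log2 CPM) was added after seeing the data. In a test on simulated data for this comparison, over 14893 genes, edgeR recovered 89 of 100 genes changed by 1 on the log2 scale and 73 of 100 changed by 0.5, with 9 false calls. Only these genes were changed, evenly in both directions, far fewer than were called in the data. A call there was by adjusted p alone, without the fold threshold. Ratios were tested by exact permutation in SciPy 1.17.1. Libraries of a condition differed by more than sampling noise (chi-square per degree of freedom from 1.76 to 5.74 over 11727 genes), so none was a copy of another.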

Additional observations from a re-analysis of the deposited data

Results flagged for a closer look

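In 7 of 92 groups of 4 libraries, 1 library stood far from the other 3, where chance gives about 1 in 20, or 4.6. As TMM-scaled FPKM, O/A replicate 2 had 478 for LAMB3, where the remaining libraries had 504 to 507, and without that library the log2(FC) was 0.28. The log2 ratio of LAMA3 to LAMB3 was -0.784 in ethanol replicate 3 against -0.743 to -0.735 in the others. Ethanol replicate 4 had 42.4 for COL7A1 against 37.1 to 37.8, and 8.21 for PARVA against 7.87 to 7.90. O/A replicate 4 had 0.198 for NID1 against 0.346 to 0.374, a gene of few counts, and 57.6 for TNS4, whose lowest O/A library had 48.5. MET was 72.9 in O/A replicate 3 against 76.3 to 76.9. The causes were not tested.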

How the results depend on the processing

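The downregulation of DST held in the 20 alternatives that refit the genes. The count of the 9 genes past both thresholds was 1, and it went to 2 under DESeq2 and median-ratio scaling, where LAMB3 was added, and to 2 on log2(FPKM + 0.1), on log2(FPKM + 1), with library totals only and under quantile normalization, where PLEC was added. The fits on FPKM and on library totals share 1 scaling, by library total without TMM, so they are not separate support for PLEC. It was 1 to 2 when libraries were left out, with LAMB3 added without ethanol replicate 1, ethanol replicate 4 or O/A replicate 2 and PLEC without ethanol replicate 3. It was 2 with the length trend removed and 3 with length and GC trends removed (ITGB4, LAMB3 and DST), both chosen after seeing the data. By adjusted p alone it was 6, and above an absolute log2(FC) of 0.5 it was 0. Over all genes the count of 5165 was 2183 with a mean FPKM of at least 5, where fewer genes were tested, 7999 by adjusted p alone and 2636 above 0.5. Library totals alone moved the split of calls to 1969 up and 3287 down, and log2(FPKM + 0.1) to 1598 and 2552.

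Signs turned in genes whose log2(FC) was small in the edgeR test, although ITGA3 and CD151 had passed that test. ITGB1 was -0.0035 on log2(FPKM + 0.1) and on log2(FPKM + 1), -0.0036 with library totals, -0.015 under quantile normalization and -0.0094 with length and GC trends removed. COL17A1 was -0.028 on log2(FPKM + 0.1), -0.027 on log2(FPKM + 1), -0.028 with library totals and -0.094 under quantile normalization. It passed the test under quantile normalization (adjusted p = 1.12e-04) and, with the other sign, at 0.109 with length and GC trends removed (adjusted p = 2.32e-04). With length and GC trends removed ITGA3 was 0.031, CD151 0.021 and MACF1 0.0089. PPL was -0.0037 and -0.0031 on the FPKM scales, and MAPRE1 0.0022 under DESeq2 and 0.0021 under median-ratio scaling. Without single libraries MACF1 ranged from -0.101 to 0.10 and MAPRE1 from -0.018 to 0.011. The cause was not tested.

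Without single libraries, the log2 differences of the ratios ranged from -0.178 to -0.154 (LAMA3/LAMB3), -0.015 to 0.006 (ITGA6/ITGB4), -0.126 to -0.108 (ITGA3/ITGB1), 0.438 to 0.507 (COL17A1/DST) and 0.191 to 0.261 (PLEC/DST), where 3 against 4 cannot give an exact permutation p below 0.0571. Over all genes tested, libraries with the same replicate number deviated little together (correlations of 0.038, -0.002, -0.021 and 0.064). These correlations do not show what single genes did, and COL7A1 had an adjusted p of 0.075 in the edgeR test without the replicate block. With the replicate block 5160 genes and 1 of the 9 were called, COL7A1 had an adjusted p of 0.00164 at 0.166 on the log2 scale, and the ratio differences were -0.167, -0.119, 0.47 and 0.231 for LAMA3/LAMB3, ITGA3/ITGB1, COL17A1/DST and PLEC/DST, where 4 pairs cannot give an exact p below 0.125.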

Other observations

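For each of the 9 genes, the gene whose log2 CPM followed it most closely over the 8 libraries was sought among 6787 genes with a mean FPKM of at least 5. These are descriptions, since the 8 points share the split into 2 conditions and the libraries. DST was followed most closely by MKI67, a marker of cycling cells (r = 0.997, log2(FC) -0.76), and PLEC by MT-CO1, a mitochondrially encoded subunit of complex IV (r = 0.992, log2(FC) -0.17). LAMB3 was followed by DNAJC10, an ER-resident chaperone (r = 0.997, log2(FC) 0.26), ITGA6 by CCSER2 (r = 0.995, log2(FC) 0.38) and ITGB4 by ZFP36L1, an mRNA decay factor (r = 0.992, log2(FC) 0.47). For LAMA3 it was ZNF721 (r = 0.967), for ITGA3 DCAF10 (r = 0.979), for ITGB1 PHLDA3 (r = 0.977) and for COL17A1 DNASE1L1 (r = 0.963).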
